A study of Mus musculus with 24 samples.

Results

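The kynurenine pathway, the main route of tryptophan breakdown in the liver, is described here through the transcripts of 8 enzymes: Tdo2, Afmid, Kmo, Kynu, Haao, Acmsd, Qprt and Aadat. They were taken by gene symbol from the deposited tables, and all 8 of the 8 symbols were found once among the 50765 genes that each of the 3 tables lists. The RNA came from mice without a working Nudt12 gene and from wild-type mice. Nudt12 encodes a hydrolase of NADH and of NAD caps on RNA, and NAD is the end product of the pathway, so the tables show whether the enzymes that feed NAD synthesis differ in their RNA when that hydrolase is missing.

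The liver cohort held 3 Nudt12 knockout and 3 wild-type livers and the kidney set 3 knockout and 2 wild-type kidneys, from mice aged 3 to 4 months with no time of day in the labels; a further wild-type kidney listed as replicate 3 was not used here. The liver time course held 6 knockout and 6 wild-type livers from mice aged 4 to 6 months, 1 library per genotype at zeitgeber time (ZT, hours after lights on) 0, 4, 8, 12, 16 and 20, after 10 days under 12 h of light and 12 h of dark. The knockout is 1 mouse line in which Cas9 removed 58 bp of exon 6; it was made in B6D2F1/J hybrid embryos and crossed to C57BL/6J, with the number of crosses not stated. The labels do not say whether libraries came from separate animals or litters, or the sex of the mice, so p-values measure the spread between these libraries, which may be technical.

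Tryptophan enters the pathway when Tdo2 opens its indole ring, and Afmid then removes the formyl group to give kynurenine. Kmo, Kynu and Haao turn kynurenine into an unstable intermediate that closes spontaneously to quinolinate. Qprt carries quinolinate on to NAD, whereas Acmsd removes the intermediate before it closes and so takes carbon away from NAD synthesis; Aadat makes kynurenic acid on a side branch.

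Nudt12 itself, which checks the labels, averaged 226 ± 12.9 normalized counts in knockout livers and 1158 ± 159.5 in wild-type livers (SD, n = 3 each). In kidney it averaged 307 ± 43.9 normalized counts in knockout (SD, n = 3) and 1548 ± 49.7 in wild type (SD, n = 2), and in the time course 209 ± 36.0 in knockout and 957 ± 212 in wild type (SD, n = 6 each). The deposited sums per library ran from 16.9 to 27.8 M (1e+06) normalized counts. That is about 12.5 to 28.6 M reads if the most common value near 1 in a library stands for 1 read. Only 14.8 to 37.3% of low values were whole multiples of that step, so the read numbers are rough. Mitochondrial transcripts took 7.40 to 16.1% of the kidney libraries, with the highest share in wild-type kidney 1, and 2.27 to 15.5% of the liver libraries. The summed level of 8 hepatocyte markers was 60395 to 95984 parts per 1e+06 of a library's summed values (ppm) in the livers and 2847 to 3893 in the kidneys, and that of 10 proximal tubule markers was 1.10 to 6.78 in the livers and 28205 to 33817 in the kidneys.

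Levels are first given across tissues, in ppm per kb of merged exon, which allows genes to be set side by side. Because the liver and kidney tables were normalized separately, these levels are a description and were not tested. In the liver cohort Tdo2 had by far the highest level, at 312 ± 56.5 ppm per kb (SD, n = 6). Kmo, a flavoprotein hydroxylase of the outer mitochondrial membrane, followed at 68.9 ± 12.1, Haao, an iron-dependent dioxygenase, at 59.6 ± 7.88 and Aadat at 48.3 ± 12.7 ppm per kb. The ranges of Kmo, Haao and Aadat overlapped, as did those of each next pair down to Acmsd, so the order of neighbours below Tdo2 is within the spread between livers. Qprt had 32.1 ± 4.48, Kynu, a vitamin B6-dependent hydrolase, 22.1 ± 4.21, and Afmid 18.3 ± 4.99 ppm per kb, and Acmsd came last at 7.76 ± 3.82. The lowest Tdo2 library, at 220.04 ppm per kb, was above the highest library of each of the other 7 genes.

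Kidney had another order. Aadat led there, at 96.4 ± 20.6 ppm per kb (SD, n = 5), and Acmsd, last in liver, was the next at 53.1 ± 8.33. Haao had 32.6 ± 2.25, Kmo 29.8 ± 4.37, Afmid 18.3 ± 1.17 and Qprt 17.2 ± 1.60 ppm per kb, where Haao overlapped with Kmo and Afmid with Qprt; Aadat, Acmsd and these pairs did not overlap with each other. Kynu was far lower, at 0.901 ± 0.593 ppm per kb, and Tdo2 was lowest at 0.0935 ± 0.0935. Without the length correction, the liver level divided by the kidney level was 3339 for Tdo2, 24.5 for Kynu, 2.31 for Kmo, 1.87 for Qprt and 1.83 for Haao. It was 0.997 for Afmid, 0.502 for Aadat and 0.146 for Acmsd, so Afmid RNA was at like levels in both tissues while Aadat and Acmsd were the 2 members with more RNA in kidney. With the mean of the time-course livers, which cover the day, in place of the liver cohort, the Acmsd ratio was 0.293.

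**Figure D1:**
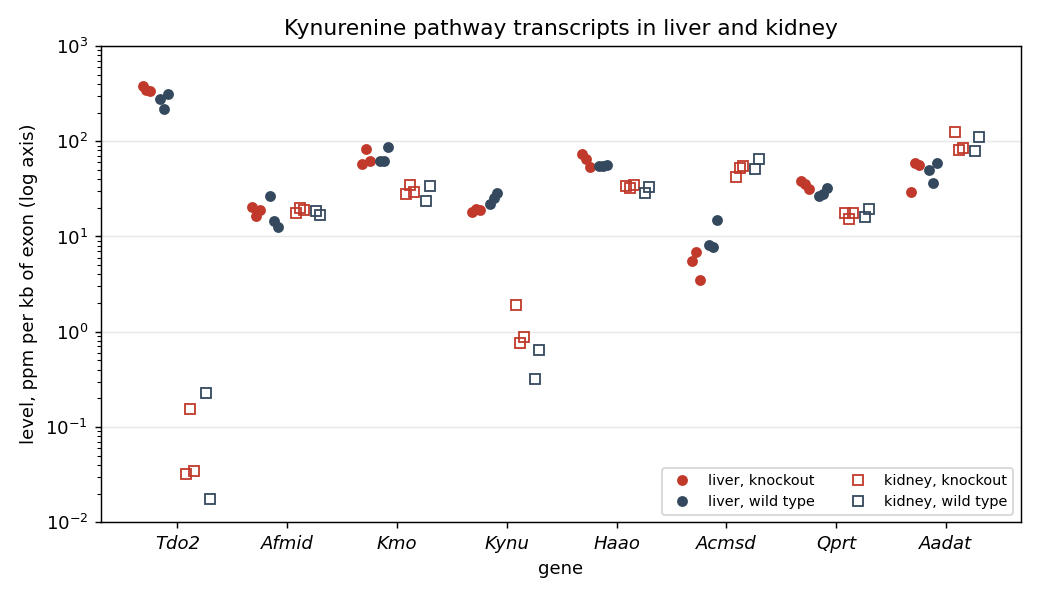
Level of each of the 8 transcripts in every liver and kidney library (log axis, ppm of the library's summed values per kb of merged exon); filled circles are livers, open squares kidneys, red knockout and dark blue wild type. Tdo2 lies between 220.04 and 381 in the 6 livers and under 1 in the 5 kidneys, and Acmsd and Aadat are the members whose kidney points lie above all liver points.

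The few Tdo2 reads in kidney were unevenly spread. Kidney Tdo2 was at 3.13, 15.4 and 3.35 normalized counts in the 3 knockout libraries, against 24.6 and 1.74 in the 2 wild-type libraries. Knockout kidney 2 and wild-type kidney 1 were thus the high libraries, 1 of each genotype. Alb, which encodes the main plasma protein of hepatocytes, was highest in the same 2 libraries. It was at 225, 396 and 184 normalized counts in knockout kidneys and at 772 and 164 in wild-type kidneys. Alb was picked from the 8 hepatocyte markers after its values were seen. Over all 8 markers, all detected, the summed level ran from 3421 to 3883 ppm in knockout and from 2847 to 3893 in wild-type kidneys. Wild-type kidney 1, the highest for Alb, had the lowest sum, so the list as a whole did not follow Alb. Alb was a small part of these sums (772 of 27.8 M normalized counts in wild-type kidney 1), which mostly reflect the other markers. Whether kidney cells themselves make those RNAs was not examined, so the sums do not measure liver RNA in kidney. The part of liver RNA in the kidney Tdo2 values was not tested.

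All 8 genes are annotated on GRCm38 by GENCODE vM21 as protein coding. Tdo2 lies on the minus strand of chromosome 3 at chr3:81957090-81976202, Afmid on the plus strand at chr11:117825924-117839908, Kmo on the plus strand at chr1:175620381-175662116 and Kynu on the plus strand at chr2:43555329-43682715. Haao is on the minus strand at chr17:83831156-83847963, Acmsd on the plus strand at chr1:127729413-127767978, Qprt on the minus strand at chr7:127107114-127122226 and Aadat on the plus strand at chr8:60505932-60545677. Haao is the only member on the chromosome of Nudt12, 24.8 Mb from it. Afmid shares 44.2% of its merged exon bases with Gm20708, a predicted gene on the same strand, so its reads could be split between both entries. Gm20708 had a median of 44.9 normalized counts in the liver cohort and 43.1 in the time course, far under Afmid. Over the time-course libraries it ran from 0 to 173, and the part of this split in the Afmid values was not tested. Afmid also shares 2.35% of its exon bases with Tk1 on the opposite strand, which had a median of 348 normalized counts in the liver cohort. Acmsd shares 3.32% of its exon bases with the opposite-strand gene 2900009J06Rik, which stayed at or under 15.4 normalized counts in every library, and no other member shares exon bases with another gene.

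Over the day, 3 of the 8 transcripts passed a test for a rhythm in liver, and only the Acmsd call held with any 1 time left out. Each gene was fitted with a 24 h wave (cosine and sine terms) and the genotype, with an F-test in limma adjusted over all 18702 genes tested. Acmsd, Tdo2 and Afmid passed an adjusted p of 0.05, where 5.8% of all genes did. The transcripts peaked at different times: Tdo2 late in the light phase, Afmid and Acmsd in the dark phase.

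Acmsd was at 1349, 494, 223, 305, 1355 and 1721 normalized counts in knockout livers at ZT0, 4, 8, 12, 16 and 20. In wild-type livers it was at 1244, 279.7, 433, 462, 702 and 1351 at the same times. In both genotypes the values at ZT4, 8 and 12 were the 3 lowest and those at ZT0 and ZT20 were high, with the highest at ZT20. The fitted amplitude, the log2 distance from the daily mean to the peak, was 1.30 ± 0.16 (SE), a 6.04-fold difference between peak and trough, with the peak at ZT20.3 ± 0.48 h (SE; adjusted p = 0.00239). By p-value it ranked 141 among all genes tested. The call held with both libraries of any 1 time left out (adjusted p from 0.00641 to 0.0310), but not with time as a factor of 6 levels (adjusted p = 0.0521).

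Tdo2, the entry enzyme, was at 21248, 25869, 26806, 28605, 25263 and 21249 normalized counts in knockout livers in time order. In wild-type livers it was at 25285, 24803, 34188, 30438, 25238 and 23591. Its highest values were at ZT12 in knockout and ZT8 in wild type. The amplitude was 0.23 ± 0.05 (SE, log2), a 1.37-fold difference between peak and trough, with the peak at ZT9.73 ± 0.79 h (SE; adjusted p = 0.0339). This call was lost without any 1 of the 6 times, with adjusted p between 0.0522 without ZT4 and 0.177 without ZT20.

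Afmid, the formamidase, was at 1017, 1355, 882, 1123, 1620.0 and 1604 normalized counts in knockout livers in time order. In wild-type livers it was at 1348, 1156, 1070.3, 1234, 1748 and 2079. The values at ZT16 and ZT20 were the 2 highest in each genotype. The amplitude was 0.39 ± 0.08 (SE, log2), a 1.73-fold difference between peak and trough, with the peak at ZT18.8 ± 0.82 h (SE; adjusted p = 0.0398). The call was lost without ZT8, ZT12, ZT16 or ZT20 (adjusted p 0.235, 0.103, 0.168 and 0.246) and under 2 rescalings of the libraries.

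The other 5 members did not pass. Kynu came nearest, with an amplitude of 0.26 ± 0.09 (SE, log2), a peak at ZT23.1 ± 1.26 h and an adjusted p of 0.195. Kynu ran from 1739.7 over a median of 2767 to 3624 normalized counts in knockout livers and from 1938 over 2487 to 2891 in wild-type livers, and was highest at ZT20 in both. Qprt had an amplitude of 0.14 ± 0.05 (adjusted p = 0.265), Kmo 0.13 ± 0.06 (0.441) and Aadat 0.10 ± 0.09 (0.745). Haao had the smallest amplitude, 0.02 ± 0.05 (SE, log2; adjusted p = 0.967), with time means that differed 1.07-fold between the highest and the lowest time. The time means of Acmsd differed 4.68-fold between the highest and the lowest time, and those of Qprt, the enzyme on the other side of the branch point, 1.23-fold.

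**Figure D2:**
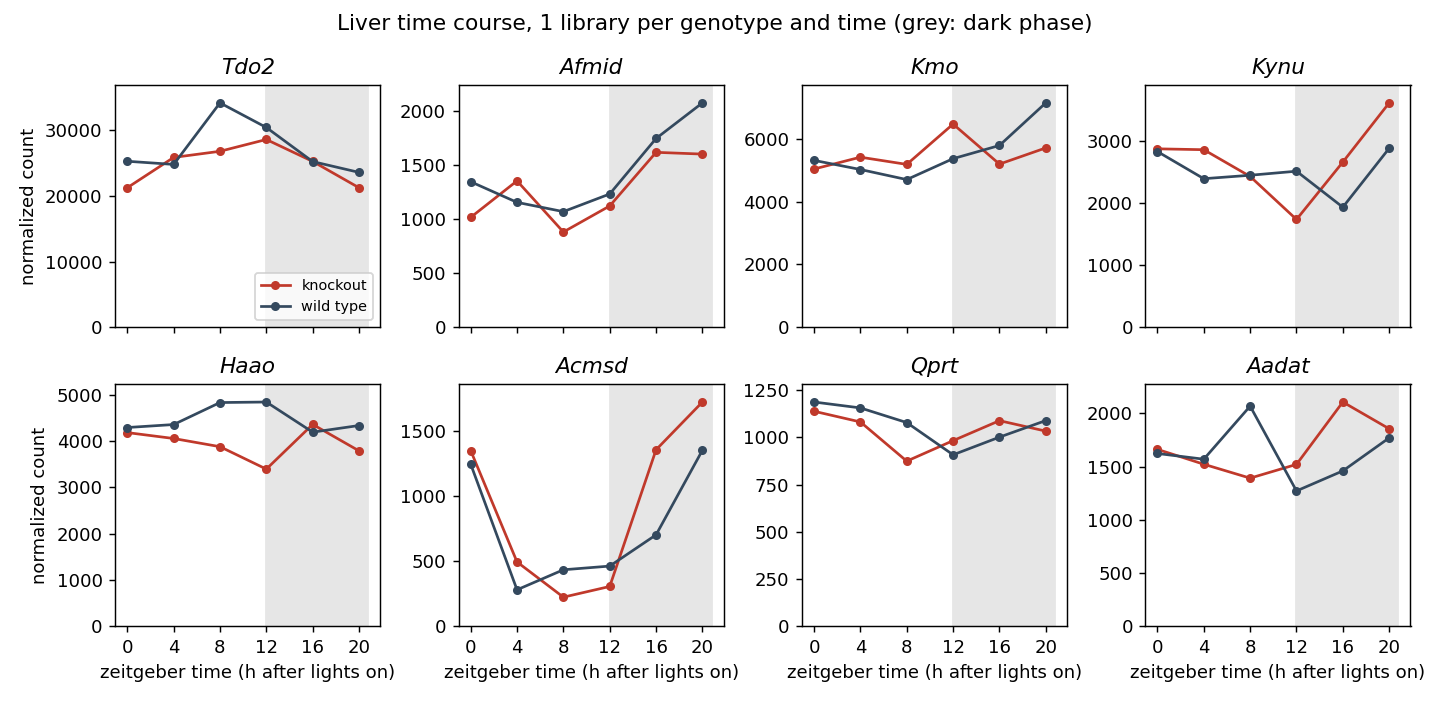
Normalized counts of the 8 transcripts against zeitgeber time (hours after lights on) in knockout (red) and wild-type (dark blue) livers, 1 library per point, with the dark phase in grey and each vertical axis starting at 0. Acmsd falls to its low values from ZT4 to ZT12 and is highest at ZT20 in both genotypes, Tdo2 is highest at ZT12 or ZT8, and Haao shows little change with time.

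The genotypes were then compared in their rhythms. The fitted Acmsd rhythm was 9.09-fold between peak and trough with a peak at ZT20.5 in knockout livers and 4.03-fold with a peak at ZT20.1 in wild-type livers. The limma test of the difference in rhythm gave an adjusted p of 0.999 over all genes (unadjusted p = 0.199), so no difference was shown at this number of libraries. No member passed this test and none had an unadjusted p under 0.05; the share of all genes called was 0%, and 4.78% had an unadjusted p under 0.05. The lowest unadjusted p among the members was 0.129, for Kmo and for Aadat. Aadat was highest at ZT16 in knockout livers (2108 normalized counts) and at ZT8 in wild-type livers (2069), each a single library.

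For each member that passed the rhythm test, 8549 genes with a mean of at least 100 were searched. Those with the profile most like that of the member over the 12 time-course libraries were taken. For Acmsd they were Crp, the C-reactive protein (Pearson r = 0.94), Nes (0.91) and Snx3 (0.91). For Tdo2 they were the glutamine transporter Slc38a3 (0.94), the glucuronosyltransferase Ugt2b36 (0.94) and Rpap3 (0.91). For Afmid they were the ceramide synthase Cers2 (0.94), Lrrc3 (0.91) and BC005537 (0.89). All points share their libraries, normalization and times of collection, and the most alike of so many genes are picked by this search.

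The knockout was compared with wild type in each sample set, with limma on log2(value + 1) and adjustment over all genes. None of the 8 members passed an adjusted p of 0.05 in the liver cohort, where 0.0157% of all 19088 genes did, in the kidney, where 0.0045% did, or in the time course, where 0.00535% did. The deleted Nudt12 was the 1 gene called in kidney and in the time course, and was also called in the liver cohort. Its time-course call held in 3 of 18 fits with a library or time left out. In kidney it held in 5 of 8 other settings, and was lost in every fit with 1 knockout library left out. A missing call therefore does not show that a member is unchanged. At an unadjusted p under 0.05 there were 2 members in the liver cohort (7.99% of all genes), 1 in kidney (5.4%) and 0 over the time course (5.99%). Log2 differences were above 0 for 4 and below 0 for 4 members in the liver cohort, where 50.3% and 49.7% of all genes lay on each side. They were above 0 for 4 and below 0 for 4 in kidney (50.3% and 49.7% of all genes), and above 0 for 3 and below 0 for 5 in the time course (49.6% and 50.4%). The median over the members was -0.0014 in the liver cohort, -0.013 in kidney and -0.028 over the time course, against 0.0029, 0.0017 and -0.0020 over all genes. In the authors' deposited table no member had an adjusted p under 0.05, and the lowest values there were 0.214 in the liver cohort, 0.481 in kidney and 0.910 in the time course.

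At the entry step, Tdo2 was at 36173, 35089 and 31977 normalized counts in knockout livers, against 27759.7, 20551 and 33381 in wild-type livers. The groups overlapped because wild-type liver 3 was above knockout liver 3. The log2 difference was 0.36 ± 0.21 (SE, 95% interval -0.11 to 0.84; adjusted p = 0.687), and 0.17 without wild-type liver 2. Over the 6 times of the time course it was -0.13 ± 0.07 (SE; adjusted p = 0.859), with knockout lower at 4 of them. In kidney, at the low counts given above, it was -0.33 ± 1.07 (SE; adjusted p = 0.992). Afmid was at 1777, 1515 and 1652 normalized counts in knockout livers and at 2414, 1242 and 1229 in wild-type livers, a log2 difference of 0.09 ± 0.26 (SE; adjusted p = 0.950). Wild-type liver 1 was the highest of the 6 and the other wild-type livers the lowest. In kidney the Afmid difference was 0.02 ± 0.13 (SE, log2; adjusted p = 0.997). Over the time course it was -0.18 ± 0.09 (SE, log2; adjusted p = 0.851), with knockout lower at 5 of 6 times.

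In the middle of the pathway, Kmo did not separate the genotypes. It was at 6698, 10275 and 7162 normalized counts in knockout livers and at 7559, 7076 and 11190.1 in wild-type livers, a log2 difference of -0.09 ± 0.23 (SE; adjusted p = 0.940). The difference was 0.03 ± 0.15 in kidney and -0.01 ± 0.09 in the time course (SE, log2).

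Kynu gave values on opposite sides in the 2 organs. It was at 2738, 3133 and 2851 normalized counts in knockout livers, against 3445, 3743 and 4887 in wild-type livers. Every knockout liver was below every wild-type liver, and the log2 difference was -0.45 ± 0.17 (SE, 95% interval -0.84 to -0.07; unadjusted p = 0.0252, adjusted p = 0.582). In kidney, where Kynu is low, it was at 293, 119.6 and 137 normalized counts in knockout and at 53.9 and 100.3 in wild type. Every knockout kidney was above both wild-type kidneys, and the log2 difference was 1.19 ± 0.45 (SE, 95% interval 0.13 to 2.25; unadjusted p = 0.0327, adjusted p = 0.887). Without knockout kidney 1 it was 0.79, and without wild-type kidney 1 it was 0.75. Groups that do not overlap were found for 13.9% of all genes in the liver cohort and 20.5% in kidney. Knockout livers of the time course had more Kynu than wild-type livers at 4 of 6 times, with a log2 difference of 0.09 ± 0.12 (SE; adjusted p = 0.938). That value was 0.0121 without ZT16 and 0.21 without ZT12. None of the 8 members differed in the same direction at all 6 times, as 3.46% of all genes did.

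Kynu is also made by macrophages, so their markers are given beside it. The summed level of 11 macrophage markers ran from 418 to 506 ppm in knockout and from 402 to 619 in wild-type livers, with all 11 at a mean of at least 1 in both. In kidney it ran from 100.05 to 119.7 ppm in knockout and from 101.9 to 114.7 in wild type, with 7 and 8 of the 11 markers at a mean of at least 1 and 2 listed at 0 in each genotype. The ranges overlapped in both organs. All 11 markers nevertheless had a log2 difference below 0 in the liver cohort, as Kynu did, with a median of -0.24 (49.7% of all genes below 0) and none with an unadjusted p under 0.05. In kidney 6 of 8 tested were below 0, and in the time course 3 of 11. The part of these cells in the Kynu values was not tested, and in whole tissue fewer cells of a type and less RNA per cell cannot be told apart.

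Haao was at 8379, 8001 and 6070.1 normalized counts in knockout livers and at 6525, 6239.6 and 7275 in wild-type livers. The groups overlapped, with a log2 difference of 0.15 ± 0.17 (SE; adjusted p = 0.839). Haao in the time course was lower in knockout at 5 of 6 times, from 3397 over a median of 3970.1 to 4364 normalized counts in knockout and from 4195 over 4349.9 to 4847 in wild type. Its log2 difference there, -0.18 ± 0.08 (SE, 95% interval -0.37 to 0.00227), had the lowest p of any member in the time course, 0.0523 before and 0.833 after adjustment. In kidney the difference was 0.05 ± 0.09 (SE, log2).

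At the branch point, Acmsd was at 381, 508 and 244 normalized counts in knockout livers, against 592, 531 and 1149 in wild-type livers. Every knockout liver was below every wild-type liver, and the log2 difference was -0.98 ± 0.35 (SE, 95% interval -1.79 to -0.17; unadjusted p = 0.0239, adjusted p = 0.578). With 1 library left out at a time the difference ran from -1.22 to -0.63, the smallest without wild-type liver 3. In kidney Acmsd was at 3015, 3767 and 3939 normalized counts in knockout and at 3971 and 4678 in wild type, again with no overlap and a log2 difference of -0.28 ± 0.15 (SE, 95% interval -0.63 to 0.07; adjusted p = 0.909). The kidney difference was -0.16 without knockout kidney 1 or without wild-type kidney 2, and -0.40 without wild-type kidney 1. Of the 8 members, 2 had groups that did not overlap in the liver cohort (13.9% of all genes) and 2 in kidney (20.5%), Kynu and Acmsd in both, which is near the share over all genes. In the time course, where both genotypes were taken at the same times, Acmsd was higher in knockout at 4 of 6 times, with a log2 difference of 0.11 ± 0.24 (SE, 95% interval -0.44 to 0.66; adjusted p = 0.957).

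**Figure D3:**
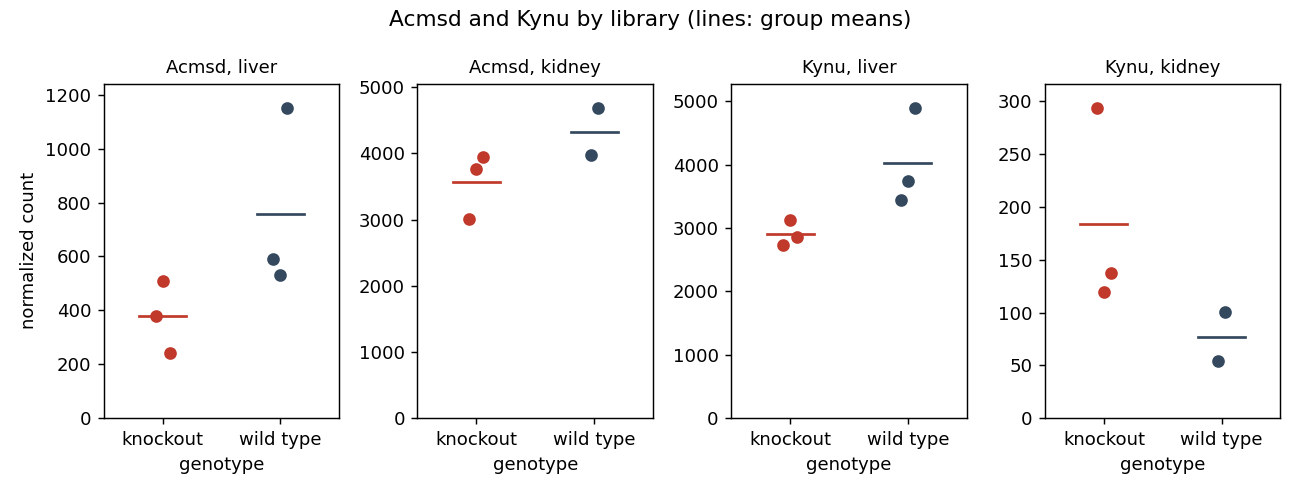
Normalized counts of Acmsd and Kynu in each library of the liver cohort and the kidney set, with group means as lines; knockout is left of wild type in each panel and each vertical axis starts at 0. Knockout points lie below all wild-type points for Acmsd in both organs and for Kynu in liver, and above them for Kynu in kidney.

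Clock transcripts separated the genotypes in the same livers and kidneys as Acmsd and Kynu. Arntl, which encodes the clock activator BMAL1, was at 21.3, 55.3 and 34.2 normalized counts in knockout livers and at 237, 458 and 507.5 in wild-type livers of the cohort. Dbp, a clock output factor, was at 1526, 1203 and 1454 in knockout and at 401, 32.5 and 36.9 in wild-type livers. Kidney Arntl was at 25.8, 66.3 and 37.2 in knockout and at 215 and 372 in wild type. In the time course Arntl was at 557, 341, 23.9, 50.6, 237 and 458 in knockout livers at ZT0, 4, 8, 12, 16 and 20, and at 638, 221, 27.8, 15.5, 171 and 449 in wild-type livers. At ZT4 Arntl was well above its lowest value in both genotypes. Acmsd at ZT4 was at its lowest in wild type (279.7), and at 494 in knockout, above the lowest of 223 at ZT8. The relation between the Arntl and Acmsd profiles was not tested. Of 17 core clock genes, 13 had an unadjusted p under 0.05 between genotypes in the liver cohort (7.99% of all genes), 11 in kidney (5.4%) and 0 in the time course (5.99%), and 0 were called after adjustment in these 3 comparisons. In the difference between cohort and time course 3 of the 17 were called, Arntl, Ciart and Usp2 (adjusted p = 0.0195 each), where 7 of all genes were. The part of the hour of collection in the Acmsd and Kynu differences of these sets was not tested, since their labels give no time. Of 11 acute phase genes, 10 had a log2 difference below 0 in the liver cohort (49.7% of all genes). There 9 of the 11 had an unadjusted p under 0.05 (7.99% of all genes). In the time course 10 of 11 were above 0 (49.6% of all genes), 5 of the 11 with an unadjusted p under 0.05 (5.99%). None was called in either set. Saa1 and Saa2 were called in the difference between the sets (adjusted p = 0.0195 each), where 0.0369% of all genes were. Saa1 was at 584, 1089 and 1155 normalized counts in knockout livers of the cohort and at 10337, 57294 and 9662 in wild-type livers. The part of these genes in the values of the members was not tested. Arntl, Dbp, Saa1, Alb and Ido1 were chosen after their values were seen.

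Qprt, on the side of NAD, was at 2478, 2497 and 2053 normalized counts in knockout livers and at 1809, 1773 and 2319 in wild-type livers. The groups overlapped through wild-type liver 3, with a log2 difference of 0.26 ± 0.16 (SE, 95% interval -0.12 to 0.63; adjusted p = 0.717). It was -0.15 ± 0.12 in kidney and -0.05 ± 0.08 in the time course (SE, log2). Aadat, on the kynurenic acid branch, was at 1544, 3358 and 3011 normalized counts in knockout livers and at 2792, 1921 and 3547 in wild-type livers. Its spread within each genotype was wider than the difference, which was -0.10 ± 0.33 in the liver cohort, -0.05 ± 0.21 in kidney and 0.05 ± 0.13 in the time course (SE, log2).

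**Figure D4:**
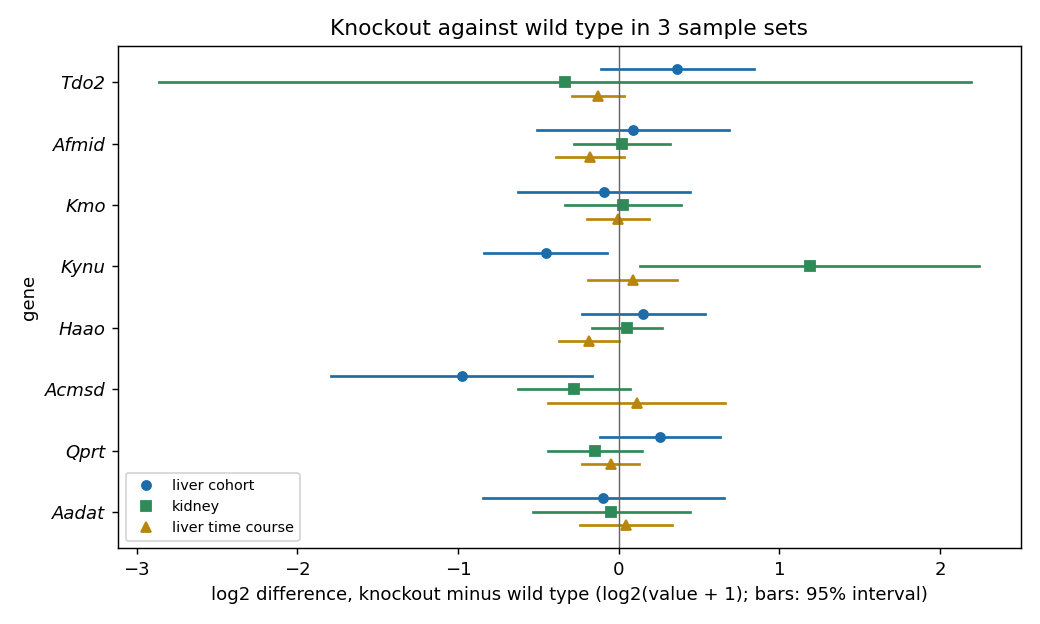
Log2 difference of each transcript, knockout minus wild type, on the log2(value + 1) scale, with 95% intervals, in the liver cohort (blue circles), the kidney (green squares) and the liver time course (gold triangles). The intervals of Kynu and Acmsd in the liver cohort lie below 0 and that of Kynu in kidney above 0, all before adjustment for the number of genes, and the other intervals include 0.

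Whether the genotype difference itself differed between sets was tested with an interaction. The fit of liver and kidney treated all libraries as independent, while the labels do not say whether both organs came from the same mice. Between liver and kidney, Kynu had the lowest p of the members, with a difference of log2 differences (liver minus kidney) of -1.64 ± 0.49 (SE, 95% interval -2.72 to -0.56; unadjusted p = 0.00667, adjusted p = 0.821). None of the 8 members passed the adjusted threshold, which 0.00463% of all 21609 genes did, and 1 had an unadjusted p under 0.05 (4.88% of all genes). Between both sets of livers (cohort minus time course), 3 members had an unadjusted p under 0.05, where 10.2% of all genes did. Acmsd had -1.09 ± 0.47 (adjusted p = 0.453), Tdo2 0.49 ± 0.19 (adjusted p = 0.406) and Kynu -0.54 ± 0.21 (SE, log2; adjusted p = 0.410). No member passed after adjustment, where 0.0369% of all genes did, so the different directions in the 2 sets of livers are not shown to differ.

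Genes around the pathway were counted in the same fits. In 8 lists (other entry and branch enzymes, the glutarate branch, the last NAD steps, tryptophan transport, serotonin and indole routes, supply of the B6 and flavin cofactors, the aryl hydrocarbon receptor and its targets, and breakdown of the other aromatic amino acids), no gene passed the adjusted threshold between genotypes in any sample set. In the liver cohort all 6 genes of the glutarate branch, which follows Acmsd, had a log2 difference above 0 (50.3% of all genes), as did all 5 of the last NAD steps and 7 of 8 of aromatic breakdown. Acat1 was at 0.49 (adjusted p = 0.598) and Gcdh at 0.47 (0.616). In kidney 3 of the 6 and in the time course 1 of the 6 glutarate branch genes were above 0 (50.3% and 49.6% of all genes). For the last NAD steps it was 3 of 5 in kidney and 1 of 5 in the time course. For aromatic breakdown it was 4 of 8 and 1 of 8. The lowest p in these lists for the liver cohort was that of Inmt, an indole N-methyltransferase, with a log2 difference of 1.81 ± 0.36 (SE; adjusted p = 0.246). Ahr, the receptor that binds kynurenine, followed with -0.75 ± 0.23 (SE; adjusted p = 0.502) and Ddc, the aromatic amino acid decarboxylase, with -0.92 ± 0.30 (adjusted p = 0.530). In kidney Nadsyn1, the NAD synthetase, had 0.47 ± 0.15 (SE, log2; adjusted p = 0.878) and in the time course Dhtkd1, a mitochondrial dehydrogenase subunit of lysine and tryptophan breakdown, had -0.55 ± 0.15 (adjusted p = 0.777).

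Genes passed the rhythm test in 4 of these lists, where 5.8% of all genes passed. Of the other entry and branch enzymes 1 of 4 tested passed: Kyat3, a kynurenine aminotransferase, with a 1.84-fold rhythm that peaked at ZT19.0 (adjusted p = 0.0243); Ido1, another enzyme that opens the indole ring, was listed at 0 in every liver. Of the last NAD steps 2 of 5 passed: Nadsyn1 with 2.03-fold and a peak at ZT7.81 (adjusted p = 0.0192), and Naprt, which makes the Qprt product from nicotinic acid, with 1.65-fold and a peak at ZT19.7 (adjusted p = 0.0186). Ddc was 1 of 5 tested in the serotonin and indole list, with 3.20-fold and a peak at ZT22.4 (adjusted p = 0.00467). Of the cofactor genes 2 of 5 passed: Pdxk, the kinase that makes the vitamin B6 cofactor of Kynu and Aadat, with 2.41-fold and a peak at ZT15.5 (adjusted p = 0.000407), and Pdxp, a phosphatase at low counts, with a peak at ZT17.6 (adjusted p = 0.000662). None of the 6 glutarate branch, 7 transport, 8 aryl hydrocarbon receptor or 8 aromatic breakdown genes passed; 2, 2, 0 and 2 of them had an unadjusted p under 0.05, as 21% of all genes did. With both libraries of 1 time left out, Ddc, Pdxk and Pdxp were called in 6 of 6 cases, but Kyat3 in 1 of 6 (only without ZT16), and Naprt (without ZT0 or ZT4) and Nadsyn1 (without ZT0 or ZT8) in 2 of 6 each.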

How the data were processed

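The authors deposited a normalized count per gene and library, an estimated count scaled between libraries and never negative (a signal), in 3 tables with 23 libraries in 6 groups, per the file headers. Per the file headers, each table gives the authors' log2 fold change of knockout over wild type with its adjusted p-value. The submitters' processing notes name the build GRCm38 and the tools DESeq2 1.24.0, DESeq, Salmon 0.12.0 and R 3.6.0 without saying what each did; whether counting used strand is not stated. RNA was depleted of ribosomal RNA and sequenced from stranded libraries as single reads of 100 bases, per the labels' protocols.

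Low values were not whole multiples of 1 step per library (14.8 to 37.3% were, within 0.1% of the step), so no count test was run. Values were analysed as log2(value + 1) with limma 3.58.1 in R 4.3.3, with a trend in the prior variance, keeping genes whose mean was 1 or more; tests were two-sided, and p-values were adjusted over all genes tested by the Benjamini-Hochberg method, with a threshold of 0.05. Fold changes on this scale understate the change of low genes. The time course was fitted with genotype and time as a factor, so time is the block that the genotypes share, as the labels give; deviations of libraries of the same time correlated with r from 0.00512 to 0.345 over 8557 genes. Differences between sets were interactions in joint fits. Each table was normalized separately, so levels across tables are descriptive. The fits were also run on simulated data with 200 changed genes and independent noise. The planted changes were larger than the estimate of any member, so that run does not show whether changes of their size are found. The members, lists and tests were chosen with earlier results of these data known. Named genes are all members, list genes past the threshold or otherwise those of lowest p in a list, Nudt12 and the most alike daily profiles; Arntl, Dbp, Saa1, Alb and Ido1 were named outside this rule, after their values were seen. Of the gene identifiers, 49706 matched GENCODE vM21 with their version and 862 more without it. Pseudocounts, filters, rescalings, trend, time terms and left-out libraries were varied. The search of promoters for motifs is not reported here.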

Additional observations from a re-analysis of the deposited data

Results flagged for a closer look

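Kynu, the vitamin B6-dependent hydrolase in the middle of the pathway, lay on opposite sides in the 2 organs. All 3 knockout livers were below all 3 wild-type livers, while all 3 knockout kidneys were above both wild-type kidneys; groups did not overlap for 13.9% of all genes in liver and 20.5% in kidney. The log2 difference between genotypes was -0.45 in liver and 1.19 in kidney, and the difference between them, liver minus kidney, was -1.64 (SE 0.49; unadjusted p = 0.00667, adjusted p = 0.821 in limma over all genes). It does not pass the correction for the number of genes. Kidney Kynu rests on 53.9 to 293 normalized counts and on 2 wild-type libraries; without wild-type kidney 1 or knockout kidney 1 the difference in kidney was closest to 0, and over all single libraries left out it ran from 0.75 to 1.63.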

How the results depend on the processing

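Over all 831 values of the members under all settings of the knockout comparisons and of the differences between sets, 0 passed the threshold, and the lowest adjusted p was 0.145. The counts over all genes were small and moved with the settings. In the liver cohort 3 genes passed, against 1 with a pseudocount of 0.1, 8 with no filter, 1 with a minimum mean of 10, 59 with liver and kidney in 1 fit, and 0 to 38 with 1 library left out. In kidney 1 gene passed, against 2 with a pseudocount of 0.1, with libraries rescaled to the same sum or with both organs in 1 fit, 0 with no filter, a minimum mean of 10 or no variance trend, and 0 to 2 with 1 library left out. In the time course 1 gene passed, against 0 with no variance trend and 0 to 1 with a library or time left out. The 1 gene called in kidney and in the time course was the deleted Nudt12. With 1 library left out its log2 difference in kidney stayed between -2.44 and -2.23, but its call was lost without any 1 knockout library. In the time course its call held in 8 of 9 other settings but in 3 of 18 fits with a library or time left out. Without the replicate block of time 1 gene and 0 members passed, so the block changed no call; in the liver cohort and kidney no paired analysis was possible because replicate numbers there follow the order of accession. For the difference between liver and kidney 1 gene passed, against 5 with a pseudocount of 0.1, 2 with no trend and 0 to 9 with 1 library left out. For the liver cohort against the time course 7 passed, against 21 with a minimum mean of 10, 0 with no trend and 0 to 126 with a library or time left out.

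The rhythm calls depended on the settings. Over all genes 1085 passed, against 584 with no trend, 354 with time as a factor, 6 in wild type alone, 17 in knockout alone and 475 to 674 with 1 time left out. Of the members 3 passed, against 1 with no trend, 0 with time as a factor, 0 in wild type alone, 1 in knockout alone and 1 to 2 with 1 time left out. Acmsd was called with each time left out and in knockout alone (adjusted p = 0.0388), but not in wild type alone (0.267). Tdo2 was lost with no filter (0.0752) and Afmid with libraries rescaled to the same sum (0.0882) or to the same sum without Rn7s1, Rn7sk and mitochondrial genes (0.110). The fits of a single genotype have 6 libraries, and leaving out a time takes away 2 of 12; for the other settings the cause was not tested. Naprt was lost under the second rescaling (0.0560), and Kyat3, Naprt and Nadsyn1 with no trend, with time as a factor and in most fits with 1 time left out (adjusted p up to 0.187, 0.148 and 0.172); Ddc, Pdxk and Pdxp were lost in the fits of a single genotype only. Aldh8a1, of the glutarate branch, passed with a minimum mean of 10 and under both rescalings (0.0404, 0.00513 and 0.0151).

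Signs of differences near 0 turned under single settings. Rescaling to the same sum gave 0.0253 for Aadat in kidney, and the second rescaling 0.00486 for Kmo in the time course. With 1 library left out, log2 differences in the liver cohort ran from -0.0744 to 0.41 for Afmid, -0.28 to 0.11 for Kmo and -0.33 to 0.25 for Aadat. In kidney they ran from -1.94 to 1.28 for Tdo2, -0.11 to 0.14 for Afmid, -0.16 to 0.21 for Kmo, -0.24 to 0.13 for Aadat, -1.18 to 0.33 for Kyat3 and -0.0338 to 1.41 for Nmnat2. Over the time course they ran from -0.0613 to 0.0573 for Kmo, -0.0537 to 0.33 for Acmsd, -0.0841 to 0.00046 for Qprt and -0.0511 to 0.17 for Aadat. The liver minus kidney difference ran from -0.91 to 2.31 for Tdo2, -0.0940 to 0.39 for Afmid, -0.31 to 0.0819 for Kmo and -0.29 to 0.30 for Aadat, and the cohort minus time course difference from -0.28 to 0.12 for Kmo and -0.38 to 0.21 for Aadat. Kidney Tdo2, at 1.74 to 24.6 normalized counts, rests on few reads. Its sign turned in 2 of 5 cases with 1 library left out, without wild-type kidney 1 and without knockout kidney 1.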
